A study of Mus musculus with 16 samples.

Results

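Fibrillar collagen is modified inside the cell and welded together outside it by 2 sets of enzymes, and their mRNAs are described here in the mouse heart after pressure overload, with and without the kinase inhibitor THZ1. The members were the 5 lysyl oxidases Lox, Loxl1, Loxl2, Loxl3 and Loxl4, the 3 lysyl hydroxylases Plod1, Plod2 and Plod3, and the prolyl 4-hydroxylase alpha subunits P4ha1 and P4ha3. They were chosen by gene symbol and each matched 1 Ensembl identifier, which gave 10 of the 22372 genes measured. All 10 passed the filter on low counts, which asked for 4 or more libraries with a value of 10 or above, as did 13331 genes in all. P4ha3 passed it only through its 4 TAC-Veh libraries, so that gene had to differ between groups to be tested at all.

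RNA from pieces of heart ventricle was sequenced in 16 C57BL/6J mice, which were 10 to 12 weeks old at the start and, per the methods of the study, male. Transverse aortic constriction (TAC) narrows the aortic arch and loads the left ventricle, and the sham operation omits the narrowing. THZ1 binds covalently to Cdk7, a kinase of the general transcription machinery, and also to Cdk12 and Cdk13. The Sham-Veh mice had the sham operation and vehicle, the Sham-THZ1 mice the sham operation and THZ1, the TAC-Veh mice TAC and vehicle, and the TAC-THZ1 mice TAC and THZ1, with 4 mice in each group. Per the labels, THZ1 went into the peritoneum from postoperative day 1 to day 60, with 2 doses of 10 mg/kg each day. A ventricle piece holds cardiomyocytes, fibroblasts, vessels and immune cells together, and the labels gave no batch or date.

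Collagen chains are hydroxylated in the endoplasmic reticulum as they are made. Prolyl 4-hydroxylases, tetramers of an alpha subunit such as P4ha1 with the beta subunit P4hb, modify prolines and let the triple helix hold at body temperature. Lysyl hydroxylases modify lysines, Plod1 mainly in the helix and Plod2 in the telopeptides at the chain ends, while Plod3 also adds sugars to hydroxylysine. After secretion and trimming of the propeptides, the copper enzymes of the lysyl oxidase family oxidize lysines and hydroxylysines of collagen and elastin to aldehydes, which then react to form covalent cross-links between molecules. In the heart these cross-links are known for making scar and interstitial collagen stiff and hard to degrade.

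Promoter sequences of 5 members were in the RefSeq table used here, those of Loxl4, Plod1, Plod3, P4ha1 and P4ha3. Lox, Loxl1, Loxl2, Loxl3 and Plod2 had no entry. Each window runs from 250 bases before to 50 bases after the start of the gene. The windows of P4ha1 and Plod3 are shown because they hold the letters ACGTG, a form of the core of the element that the hypoxia-inducible factor binds. Some prolyl and lysyl hydroxylase genes are textbook targets of that factor. Other forms of the core, such as GCGTG, were not searched or marked. The windows shown for P4ha1 and Plod3 also hold GCGTG, and the windows not shown may hold such forms. The window of P4ha3, the member with the lowest counts, is shown beside them because it held none of the motifs searched. Capitals mark ACGTG or its reverse complement CACGT, and positions are on GRCm38.p6, another build than the one the counts were made on.
P4ha1, chr10:59323046-59323345, plus strand: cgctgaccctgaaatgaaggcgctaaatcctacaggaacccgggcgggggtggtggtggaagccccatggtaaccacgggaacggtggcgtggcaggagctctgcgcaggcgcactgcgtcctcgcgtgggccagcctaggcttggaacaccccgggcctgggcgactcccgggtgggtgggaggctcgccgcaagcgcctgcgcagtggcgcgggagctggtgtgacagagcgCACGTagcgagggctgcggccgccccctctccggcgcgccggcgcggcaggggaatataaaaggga
Plod3, chr5:136986769-136987068, plus strand: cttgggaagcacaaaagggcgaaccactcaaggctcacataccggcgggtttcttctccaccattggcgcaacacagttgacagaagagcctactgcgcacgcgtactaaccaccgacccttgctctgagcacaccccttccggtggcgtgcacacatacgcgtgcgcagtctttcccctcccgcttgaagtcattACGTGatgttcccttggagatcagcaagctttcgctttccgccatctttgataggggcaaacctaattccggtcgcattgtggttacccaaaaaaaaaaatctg
P4ha3, chr7:100285270-100285569, plus strand: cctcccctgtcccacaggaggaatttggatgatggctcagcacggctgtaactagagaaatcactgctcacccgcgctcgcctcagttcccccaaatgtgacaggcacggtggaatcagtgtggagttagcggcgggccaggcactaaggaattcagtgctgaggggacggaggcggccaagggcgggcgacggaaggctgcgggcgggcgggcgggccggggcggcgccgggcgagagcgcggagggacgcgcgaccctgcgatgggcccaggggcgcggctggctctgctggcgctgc

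The match began 16 bases before the start in P4ha1 and 54 bases before it in Plod3, and 19.6% of 32851 promoter windows in the table held the same letters on either strand. CAGAC, a short motif of SMAD factors, was found in Loxl4 and Plod1, beside 49.6% of all windows. GGAATG, a motif of TEAD factors, was in 14.7% of all windows and TGANTCA, a motif of AP-1, in 7.81%, and neither was in the 5 windows of members. A match is a run of letters and was not tested as a binding site.

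Recovered reads in protein-coding genes came to 21.4 to 35.8 M (mega) per library, and the mitochondrial genes took 33.2% to 44.7% of them. A library with 0 reads of a gene allows up to 3 reads at that depth, which covers counting error only. The TAC-Veh libraries were the most spread of the groups, with a median SD over all genes tested of 0.22 on the log2 scale, against 0.10 in Sham-Veh, 0.09 in Sham-THZ1 and 0.14 in TAC-THZ1. Lox followed that spread, at 573 to 4471 normalized counts in TAC-Veh and 148 to 244 in TAC-THZ1. Not every member did. Loxl4 ran from 43.5 to 91.5 in TAC-Veh and from 16.4 to 42.3 in TAC-THZ1, which is the wider range in fold terms. TAC-Veh replicate 2 held the highest value of the group for 8 of the 10 members and replicate 3 the lowest for 7, so replicates 1 and 2 gave larger TAC effects than replicates 3 and 4 for most members. Results that leave out 1 of these libraries are given where a call was lost.

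In sham hearts the levels per kilobase of exon spanned a wide range. In Sham-Veh, Plod1 stood at 346 ± 13.1 normalized counts per kilobase (mean ± SD, n = 4, as for all values written this way), P4ha1 at 298, Loxl1 at 281 ± 28.7, Plod2 at 204 ± 5.74, Plod3 at 176 ± 10.8 and Loxl2 at 155 ± 14.4. Loxl3 at 32.9 ± 3.45, Lox at 25.1 ± 2.72, Loxl4 at 5.56 ± 1.40 and P4ha3 at 0.574 were far lower. The ranges over mice overlapped between the neighbours Plod1 and P4ha1, P4ha1 and Loxl1, and Plod3 and Loxl2, and between no other neighbours in that order. Plod2 and Plod3 changed places when the longest transcript stood in for the exon length. In TAC-Veh the order was Loxl1, P4ha1, Loxl2, Lox, Plod1, Plod2, Plod3, Loxl3, Loxl4 and P4ha3, and every pair of neighbours overlapped except Loxl3 and Loxl4.

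**Figure D1:**
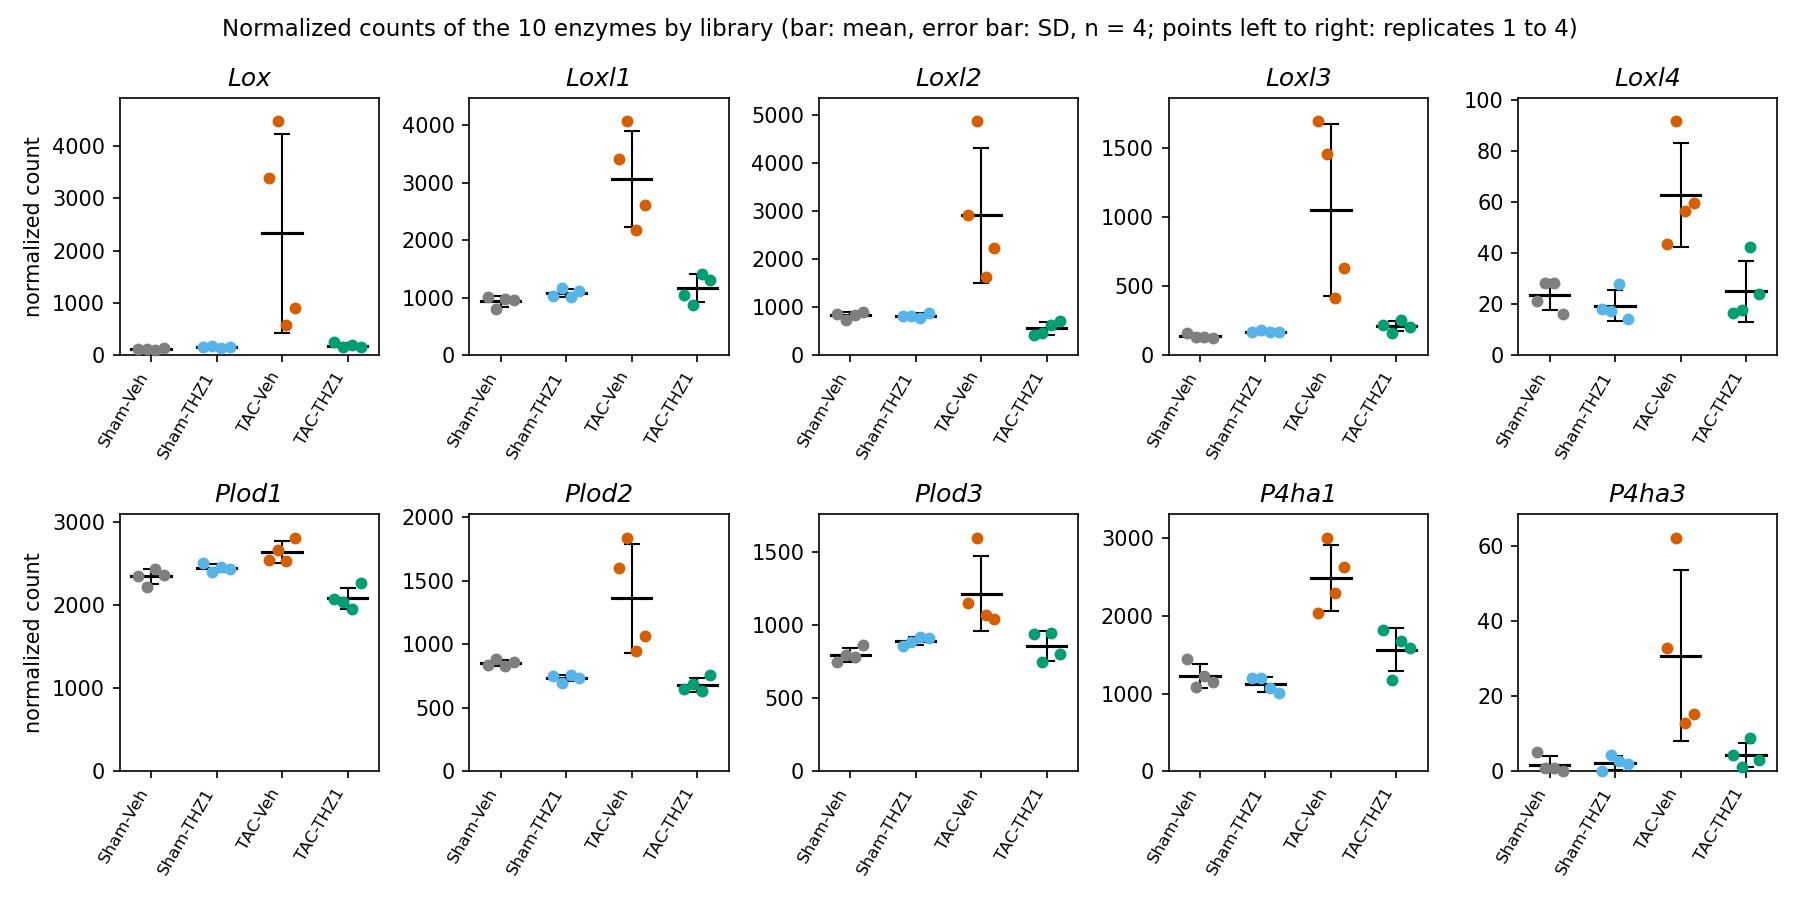
Normalized counts (linear axis from 0) of the 10 enzymes in each of the 16 libraries, by group, with the group mean as a bar and the SD as the error bar. For Lox, the TAC-Veh libraries ran from 573 to 4471, while the TAC-THZ1 libraries lay between 148 and 244, above every Sham-Veh library and below every TAC-Veh library.

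TAC raised all 5 lysyl oxidases, and most of all Lox, the founding enzyme of the family. Lox (ENSMUSG00000024529, chromosome 18 from 52675723 to 52689521 on the minus strand of NCBIM37, as for all gene positions) had normalized counts of 126, 114, 102 and 130 in the Sham-Veh libraries, replicates 1 to 4 in that order, and of 3390, 4471, 573 and 894 in the TAC-Veh libraries. The lowest TAC-Veh library stood above the highest Sham-Veh library, and within TAC-Veh the values differed 7.81-fold. The difference was 3.82 ± 0.45 (log2 fold change ± SE), or 14.1-fold, with a limma adjusted p of 7.71e-06. Since 1 was added to every normalized count before taking log2, the fold changes of low genes come out too small.

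Loxl3, which also oxidizes collagen and elastin lysines, was the next in size. Its counts (ENSMUSG00000000693, chromosome 6 from 82984167 to 83002556, plus strand) were 159, 130, 135 and 128 in Sham-Veh and 1693, 1458, 415 and 629 in TAC-Veh, with no overlap. The difference was 2.70 ± 0.31, or 6.48-fold, with a limma adjusted p of 6.06e-06. Htra2 overlaps this gene on the other strand, and the counting was by strand. Loxl1, the member most tied to elastic fibers (ENSMUSG00000032334, chromosome 9 from 58135530 to 58161019, minus strand), had 1020, 800, 975 and 955 in Sham-Veh and 3422, 4071, 2188 and 2607 in TAC-Veh. Its lowest TAC-Veh library was above the highest sham library, and the difference was 1.68 ± 0.17, or 3.20-fold, with a limma adjusted p of 1.55e-06.

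Loxl2, a secreted oxidase with scavenger receptor domains that acts on collagen IV as well as fibrillar collagen, rose to a like extent. The long noncoding RNA gene Gm16867 overlaps it on the other strand. Its counts (ENSMUSG00000034205, chromosome 14 from 70008978 to 70095640, plus strand) were 854, 724, 831 and 908 in Sham-Veh and 2917, 4870, 1632 and 2239 in TAC-Veh. The groups did not overlap, and the difference was 1.70 ± 0.24, or 3.25-fold, with a limma adjusted p of 3.46e-05. Loxl4, the least abundant oxidase (ENSMUSG00000025185, chromosome 19 from 42668472 to 42687303, minus strand), had 21.2, 28.1, 28.3 and 16.1 in Sham-Veh and 43.5, 91.5, 56.5 and 59.6 in TAC-Veh. It rested on 101 reads summed over Sham-Veh and 292 over TAC-Veh, and the difference of 1.37 ± 0.30 had a limma adjusted p of 0.00169.

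Among the lysyl hydroxylases the rise was smaller. Plod2, the telopeptide lysyl hydroxylase (ENSMUSG00000032374, chromosome 9 from 92437061 to 92503266, plus strand), had 835, 881, 829 and 862 in Sham-Veh and 1601, 1837, 943 and 1061 in TAC-Veh. The TAC-Veh values fell into a higher and a lower pair, and even the lower pair lay above all Sham-Veh values. The difference was 0.62 ± 0.15, or 1.54-fold, with a limma adjusted p of 0.00321. Plod3, which carries glycosyltransferase activity (ENSMUSG00000004846, chromosome 5 from 137462889 to 137472518, plus strand), had 748, 794, 780 and 864 in Sham-Veh and 1151, 1600, 1072 and 1046 in TAC-Veh. It rose by 0.59 ± 0.11 with a limma adjusted p of 0.000505, and it shares its locus with Znhit1 on the other strand and with Mir702 on its own strand.

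Plod1, the most abundant of the 3 (ENSMUSG00000019055, chromosome 4 from 147283862 to 147310876, minus strand), had 2352, 2221, 2434 and 2362 in Sham-Veh and 2542, 2660, 2523 and 2808 in TAC-Veh. These groups did not overlap, but they were close. The difference was 0.17 ± 0.06, or 1.12-fold, with a limma adjusted p of 0.0207. This call was lost without Sham-Veh replicate 2, with an adjusted p of 0.0723, without TAC-Veh replicate 4, with 0.0516, and in a fit of those 2 groups alone, with 0.0718.

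P4ha1, the main catalytic subunit of collagen prolyl 4-hydroxylase (ENSMUSG00000019916, chromosome 10 from 58786044 to 58836052, plus strand), had 1447, 1085, 1227 and 1147 in Sham-Veh and 2032, 3002, 2285 and 2625 in TAC-Veh. Every TAC-Veh library was above every Sham-Veh library, and the difference was 1.01 ± 0.13, or 2.02-fold, with a limma adjusted p of 2.28e-05. P4ha3, the least abundant alpha subunit (ENSMUSG00000051048, chromosome 7 from 107434030 to 107468209, plus strand), had normalized counts of 5.30, 0.802, 0.884 and 0 in Sham-Veh and 32.9, 62.2, 12.9 and 15.3 in TAC-Veh. It rested on 7 reads summed over the Sham-Veh libraries and 146 over the TAC-Veh libraries. The fitted difference was 3.62 ± 0.67 with a limma adjusted p of 0.00042, and it was 4.09 with a pseudocount of 0.5 and 2.26 with one of 5. That call was favoured by the way the gene passed the filter.

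All 10 members were therefore called higher with TAC at an adjusted p under 0.05, where 21.4% of all genes tested were called higher, and all 10 had no overlap, where 18.2% of all genes had every TAC-Veh library above every Sham-Veh library. The median log2 fold change over the members was 1.52, against -0.00 over all genes tested. Without P4ha3, whose test rested on its TAC-Veh values, 9 of 9 were called and the median was 1.37. In a fit of the Sham-Veh and TAC-Veh libraries alone, 2290 genes were called higher and 2444 lower of 13331. The main fit called 2857 and 3146, and among the members only the call of Plod1 was lost.

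In bulk tissue, fewer or more cells of a type and less or more RNA per cell cannot be told apart. Markers of other and related cells moved with TAC. All 6 myofibroblast markers were called higher, and their summed normalized counts went from 2062 to 3088 in Sham-Veh to 28999 to 91913 in TAC-Veh. Of 6 general fibroblast markers 3 were called higher, with sums of 18939 to 21585 in Sham-Veh and 37046 to 48199 in TAC-Veh. Of 6 cardiomyocyte markers 4 were called lower, and their sums went from 957040 to 1059594 down to 446416 to 666708. Of 6 macrophage markers 4 were called higher, with sums of 4281 to 5118 in Sham-Veh and 6037 to 7582 in TAC-Veh. Endothelial markers gave 1 higher and 2 lower of 6, with sums of 33685 to 37281 and 32808 to 50635, and smooth muscle and pericyte markers 1 higher and 2 lower of 6, with sums of 21611 to 24515 and 17267 to 24014. Most of these sums are led by a single abundant marker, such as Myh6, Postn, Dcn, Fabp4 or Rgs5, so they do not weigh the markers equally. The cardiomyocyte marker Actn2, for 1, overlapped, at 39128 to 44822 in Sham-Veh and 34449 to 45045 in TAC-Veh. Atrial markers summed to at most 82.3 in any library, and Sln, Myl7 and Bmp10 were at 0 in some libraries. The myofibroblast marker Cthrc1 was at 0 in some libraries too, and no marker was at 0 in every library. Cthrc1 reached 10 in 0 sham libraries, 4 TAC-Veh and 3 TAC-THZ1 libraries. It would not have been tested without its TAC-Veh values, so its call was favoured by the filter. The part of these cells in the members' result was not tested.

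In TAC mice given THZ1, each of the 10 enzymes was lower than in TAC mice given vehicle. Lox stood at 244, 148, 194 and 153 normalized counts in the TAC-THZ1 libraries, all below the lowest TAC-Veh library. The difference was -3.20 ± 0.45, or 9.18-fold lower, with a limma adjusted p of 0.000189. Loxl2 stood at 418, 466, 639 and 709, which is below every library of the other 3 groups. It fell by 2.30 ± 0.24 on the log2 scale against TAC-Veh, or 4.92-fold, with a limma adjusted p of 2.94e-05.

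Loxl3 had 218, 164, 256 and 203 in TAC-THZ1 and was lower by 4.30-fold, with a log2 difference of -2.10 ± 0.31 and a limma adjusted p of 0.000248. Loxl1 had 1049, 881, 1412 and 1312, and its log2 difference was -1.38 ± 0.17 with a limma adjusted p of 6.13e-05. Loxl4 had 16.4, 17.8, 42.3 and 23.8, and replicate 3 came close to the lowest TAC-Veh library at 43.5. Its difference was -1.34 ± 0.30 with a limma adjusted p of 0.00405.

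Among the lysyl hydroxylases the falls were smaller, as the rises had been. Plod2, the telopeptide enzyme, had 650, 684, 631 and 756 in TAC-THZ1, all below the Sham-Veh range too, and fell by 0.95 ± 0.15 against TAC-Veh with a limma adjusted p of 0.000391. Plod3 had 942, 746, 949 and 801 and fell by 0.49 ± 0.11 with a limma adjusted p of 0.00452, a call that was lost in a fit of the 2 groups alone, with 0.0570. Plod1 had 2071, 2039, 1956 and 2258 and fell by 0.34 ± 0.06 with a limma adjusted p of 0.000481. For Plod1 the TAC-THZ1 libraries lay below every Sham-THZ1 library and below 3 of the 4 Sham-Veh libraries.

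P4ha1, the subunit shown above with its promoter, had 1818, 1176, 1678 and 1591 in TAC-THZ1, all below TAC-Veh. It fell by 0.67 ± 0.13 with a limma adjusted p of 0.00194. P4ha3 had 4.37, 1.27, 8.95 and 2.97, from 19 reads in all, and its fitted difference of -2.49 ± 0.67 had a limma adjusted p of 0.0111, which was 0.0812 when libraries were weighted by their quality. This call too was favoured by the filter.

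The count of members called lower was 10 of 10, where 14.2% of all genes tested were called lower, and none of the 10 overlapped, where 10.5% of all genes had every TAC-THZ1 library below every TAC-Veh library. The median log2 fold change was -1.36 over the members and 0.01 over all genes tested. Without P4ha3, which was tested only through its TAC-Veh values, 9 of 9 were called lower and the median was -1.34. This comparison and the one with TAC share the TAC-Veh libraries, so a gene that is high in those libraries by chance goes up in the one and down in the other. The fit shares 1 spread among groups, and TAC-Veh was the most spread, so adjusted p against TAC-Veh can come out too small. In a fit of the TAC groups alone, 583 genes were called higher and 816 lower of 13331, where the main fit called 2019 and 1899. Among the members only the call of Plod3 was lost in that fit. Marker levels again moved with the groups. The myofibroblast markers had 5 of 6 called lower, with sums of 3461 to 8877 in TAC-THZ1. Their list includes Cthrc1, which passed the filter through its TAC-Veh values. The fibroblast markers had 3 of 6 called lower with sums of 24041 to 37418, and the cardiomyocyte markers 4 of 6 higher with sums of 752811 to 932579. None of the 6 macrophage markers was called, with sums of 4288 to 8049. Of the 6 endothelial markers 1 was called higher and 2 lower, with sums of 27047 to 34285, and of the 6 smooth muscle and pericyte markers 0 higher and 2 lower, with sums of 17405 to 18240. The 1 atrial marker tested was not called, and the atrial sums were 25.1 to 39.5. Their part in the members' result was not tested.

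**Figure D2:**
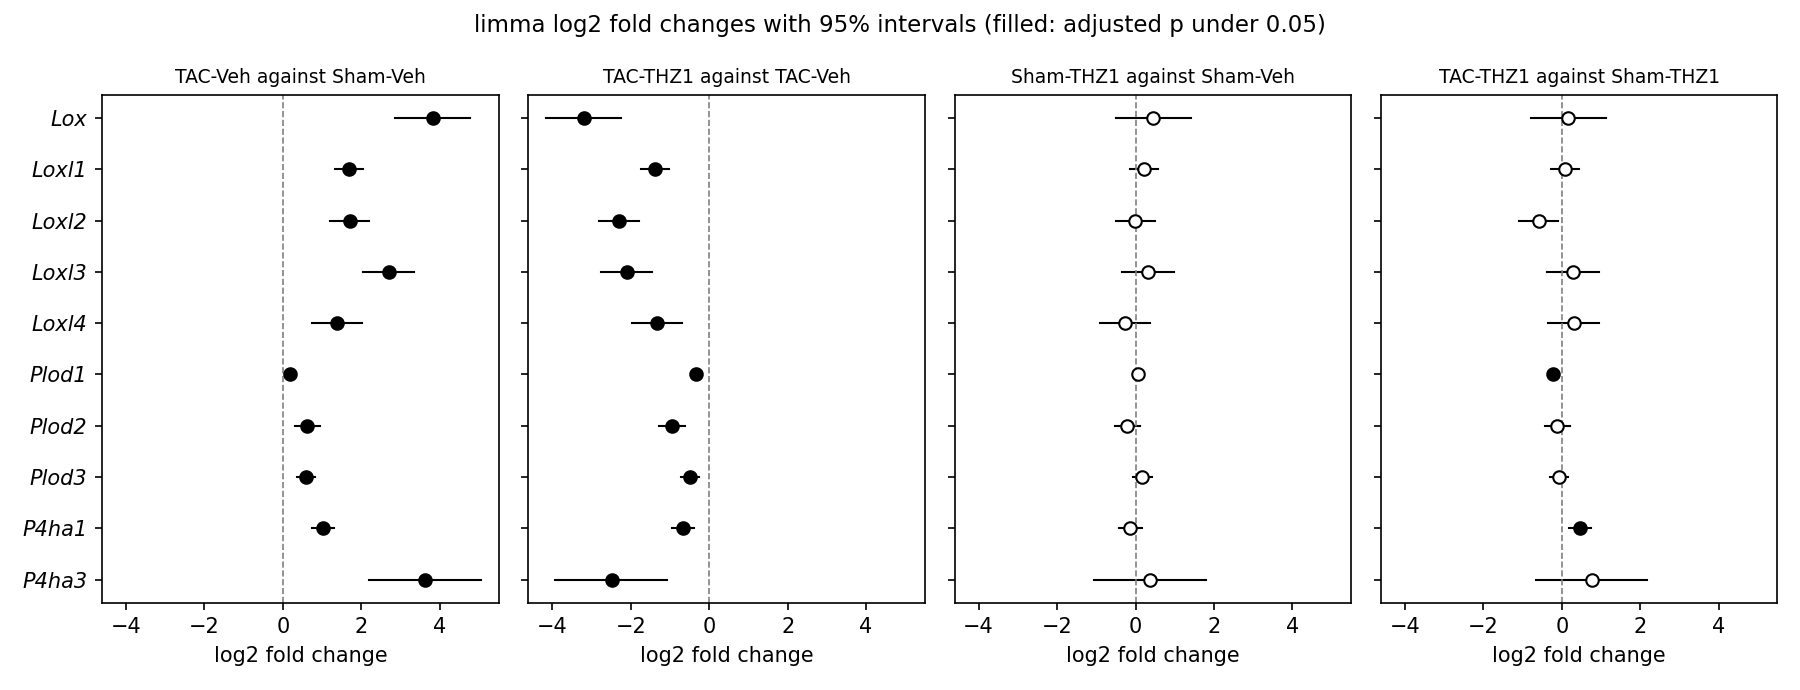
Log2 fold changes of the 10 enzymes (points) with 95% confidence intervals (lines) from limma in 4 comparisons, filled where the adjusted p was under 0.05. All 10 points are filled to the right of 0 with TAC and to the left of 0 with THZ1 in TAC mice, none is filled with THZ1 in sham mice, and Plod1 and P4ha1 are filled between the THZ1-treated groups.

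In sham mice THZ1 gave no call among the members. Limma called 0 of the 10, where it called 0.0675% of all genes in either direction, and 0 members had an unadjusted p under 0.05, the smallest being 0.154 for Plod3. DESeq2 and edgeR on recovered reads also called 0 members. Lox had 162, 172, 147 and 164 normalized counts in Sham-THZ1, all above the highest Sham-Veh value of 130. The log2 difference was 0.45, with a 95% interval of -0.50 to 1.41 and a limma adjusted p of 0.935. Loxl3 had 166, 182, 168 and 168, also above all Sham-Veh values, and its difference of 0.31 had an interval of -0.34 to 0.97. Plod2 had 748, 697, 757 and 738, all below Sham-Veh, and its difference of -0.21 had an interval of -0.53 to 0.11.

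The other 7 members overlapped between the sham groups. Over all genes tested, 6.29% had every Sham-THZ1 library above every Sham-Veh library, and 5.05% had the reverse. The fit shares 1 spread among groups, and the TAC-Veh libraries widen it. In a fit of the sham groups alone, Lox was called higher with an adjusted p of 0.0256 and Plod2 lower with 0.0262, and the other 8 were not called. That fit called 2.15% of all genes tested higher and 1.34% lower. The myofibroblast markers did not separate the sham groups, with sums of 2058 to 2396 in Sham-THZ1, and of the 6 fibroblast and 6 cardiomyocyte markers 0 were called.

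The difference between the effect of THZ1 in TAC mice and its effect in sham mice was tested as an interaction. It uses the same TAC-Veh libraries as the comparisons above, so its calls are not separate from theirs. Of the members 7 of 10 were called, each with a lower value, where 5.62% of all genes tested were called lower and 4.4% higher. For Lox the interaction was -3.65 ± 0.64 on the log2 scale with a limma adjusted p of 0.00389, for Loxl2 it was -2.29 ± 0.34 with 0.00211, and for Loxl1 it was -1.60 ± 0.24 with 0.00212. Loxl3 gave -2.42 with 0.00468, Plod1 -0.40 with 0.00665 and Plod3 -0.66 with 0.0187. Plod2 gave -0.74 with 0.0387, a call that was lost in 13 of 16 fits with 1 library left out, with adjusted p of 0.0527 to 0.0734, and kept without TAC-Veh replicate 3 or 4 or TAC-THZ1 replicate 4. The interaction of Loxl4 was -1.07 with 0.120, of P4ha1 -0.54 with 0.0777 and of P4ha3 -2.86 with 0.0648, none of which passed. Loxl4 passed without TAC-THZ1 replicate 3, with 0.0384, and P4ha1 without TAC-Veh replicate 1, with 0.0348. P4ha3 passed without Sham-Veh replicate 1, with 0.0351, Sham-THZ1 replicate 1, with 0.0435, or TAC-THZ1 replicate 3, with 0.0457. Its interaction uses the TAC-Veh values through which it passed the filter, so these results were favoured in advance. Leaving P4ha3 out, 7 of 9 members were called lower.

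Between the THZ1-treated groups, most members did not differ beyond their error, with 1 of 10 called higher in TAC-THZ1 and 1 of 10 called lower. Over all genes tested, 11.4% were called higher and 12.8% lower. P4ha1 was higher in TAC-THZ1 by 0.47 ± 0.13, with Sham-THZ1 libraries at 1196, 1206, 1067 and 1011 and a limma adjusted p of 0.0204. One TAC-THZ1 library, replicate 2 at 1176, lay inside the Sham-THZ1 range. The call was lost without Sham-THZ1 replicate 3 (adjusted p of 0.0525) or 4 (0.0643) and without TAC-THZ1 replicate 1 (0.0709) or 3 (0.0540), each of which left 1 member called.

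Plod1 was lower in TAC-THZ1 by a log2 difference of -0.23 ± 0.06 with a limma adjusted p of 0.00791, with Sham-THZ1 libraries at 2498, 2390, 2456 and 2426 and no overlap. Loxl2 also had no overlap, with Sham-THZ1 at 812, 815, 773 and 888, but its difference of -0.59 had a limma adjusted p of 0.0787 and a 95% interval of -1.09 to -0.09. It passed in a fit of those 2 groups alone, with 0.0102, without TAC-Veh replicate 2, with 0.0184, and without TAC-Veh replicate 3, with 0.0362. These 2 members were below Sham-THZ1 in every library, where 17.7% of all genes were. For Lox the difference was 0.17 with an interval of -0.79 to 1.12, for Loxl1 0.08 with -0.27 to 0.43, and for Plod2 -0.11 with -0.43 to 0.20.

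A comparison of TAC-THZ1 with Sham-Veh, added after the values had been seen, placed the enzymes against untreated hearts. Plod1 was called lower, with a difference of -0.17 ± 0.06 and a limma adjusted p of 0.0353, where 11.8% of all genes were called lower and 10.9% higher, and 0 members were called higher. Lox and Loxl3 lay above Sham-Veh in every TAC-THZ1 library, with differences of 0.62 and 0.59 and limma adjusted p of 0.339 and 0.177. Loxl2 and Plod2 lay below it in every library, with differences of -0.60 and -0.33 and limma adjusted p of 0.0766 and 0.124. For all genes 15.6% lay above in every library and 16.1% below.

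The make-up of the lysyl oxidase pool shifted with TAC. Per kilobase, the 5 oxidases together came to 500.0 ± 43.2 normalized counts in the Sham-Veh libraries and 2227 ± 1040 in the TAC-Veh libraries. With THZ1 the sum was 558 ± 29.9 after the sham operation and 548 ± 104 after TAC. Lox made up 5.04% ± 0.565 of this sum in Sham-Veh and 6.15% ± 0.201 in Sham-THZ1. In the TAC-Veh libraries its share was 26.7%, 27.6%, 10.2% and 12.2%, and in the TAC-THZ1 libraries 10.4%, 7.38%, 6.32% and 5.33%. The share of Lox was thus highest in TAC-Veh replicates 1 and 2, and the other pair had shares close to the highest TAC-THZ1 library, whose value of 10.4% lay above TAC-Veh replicate 3.

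Loxl1 was the largest part in every library but its share moved the other way, from 56.2% ± 1.32 in Sham-Veh to 44.6% ± 9.46 in TAC-Veh and 63.4% ± 1.22 in TAC-THZ1. Loxl2 held 31.1% ± 1.26 of the Sham-Veh pool, 27.6% ± 1.18 of the Sham-THZ1 pool, 24.8% ± 3.12 of the TAC-Veh pool and 19.0% ± 2.65 of the TAC-THZ1 pool. Loxl3 held 6.60% ± 0.597, 7.31% ± 0.296, 10.7% ± 2.89 and 9.20% ± 1.03 in the same order, and Loxl4 held 1.53% or less in every library. Shares were computed for description and were not tested. With the longest transcript as the length, the share of Lox was 5.22% in Sham-Veh and 19.7% in TAC-Veh.

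**Figure D3:**
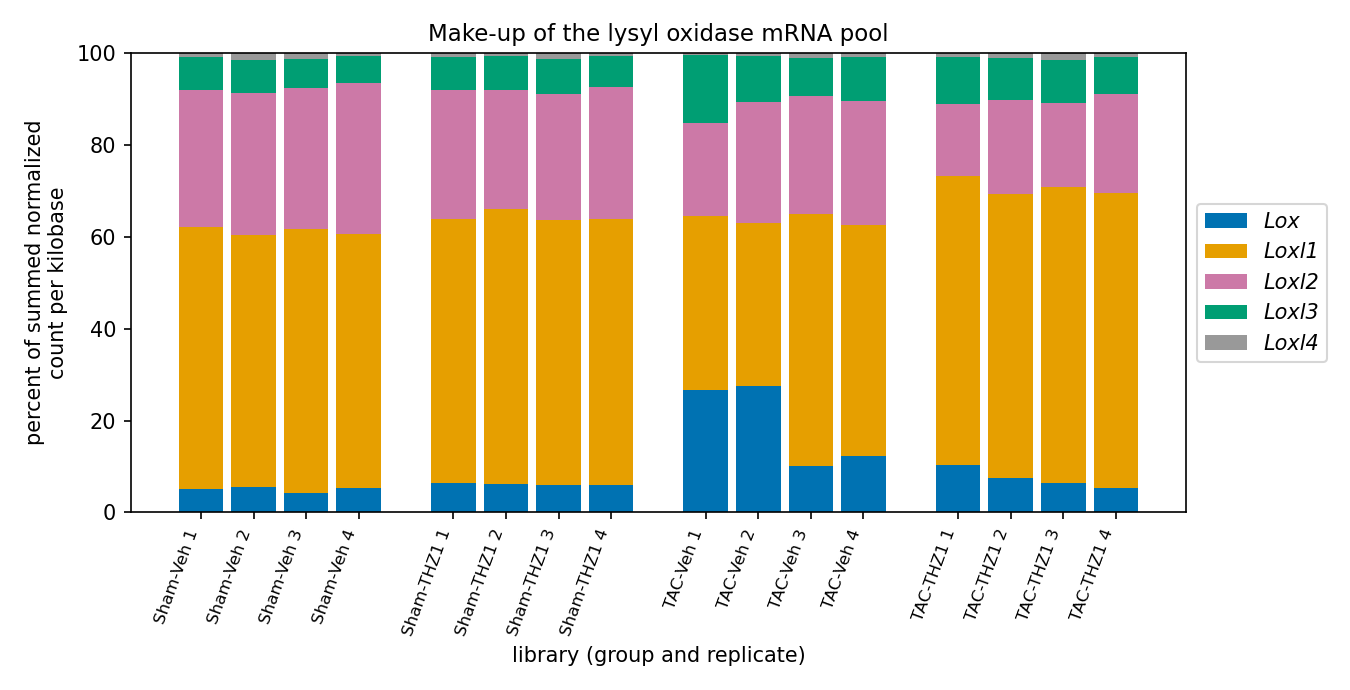
Percent of the summed normalized count per kilobase of the 5 lysyl oxidases taken by each, as a stacked bar per library, grouped by treatment. The blue part, Lox, is 26.7% and 27.6% in TAC-Veh replicates 1 and 2 and 10.4% or less in every sham and TAC-THZ1 library.

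The lysyl hydroxylase pool moved less. Its sum per kilobase was 726 ± 15.7 for Sham-Veh, 735 ± 13.4 for Sham-THZ1, 984 ± 154 for TAC-Veh and 661 ± 26.5 for TAC-THZ1. Plod2 made up 28.1% ± 1.01, 23.9% ± 0.447, 32.5% ± 5.70 and 24.6% ± 1.64 of it, so that both THZ1-treated groups had a lower share than either vehicle group.

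Because each library gives both genes of a ratio, 4 ratios were compared between groups with exact two-sided permutation tests of 4 libraries against 4, for which the smallest possible p is 0.0286. The 8 tests were adjusted together. Since the 2 tests with P4ha3 were favoured by the way that gene passed the filter, the other 6 were also adjusted without them, a choice made after the values were seen, and none then passed (lowest adjusted exact permutation p = 0.0571). The log2 ratio of Lox to Col1a1, the main chain of its substrate, was -3.69 ± 0.12 in Sham-Veh and -0.98 ± 1.22 in TAC-Veh. The difference was 2.71 on the log2 scale with no overlap (exact permutation p = 0.0286, adjusted 0.0457 over 8 tests and 0.0571 over 6). In TAC-THZ1 the ratio was -2.42 ± 0.37, and its fall of 1.44 did not pass (exact permutation p = 0.0571, adjusted 0.0762), since the TAC-Veh libraries at -1.74 and -2.25 reached toward or into the TAC-THZ1 range of -2.66 to -1.87. The ratio of Loxl2 to Lox was 2.81 ± 0.15 in Sham-Veh and 0.69 ± 0.86 in TAC-Veh, a difference of -2.12 (exact permutation p = 0.0286, adjusted 0.0457 over 8 tests and 0.0571 over 6), and its difference of 0.90 with THZ1 did not pass (exact permutation p = 0.143, adjusted 0.143).

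The ratio of telopeptide to helical lysyl hydroxylase, Plod2 to Plod1, was -1.46 ± 0.09 for Sham-Veh, -1.73 ± 0.03 for Sham-THZ1, -1.01 ± 0.47 for TAC-Veh and -1.61 ± 0.05 for TAC-THZ1. With TAC the difference of 0.45 did not pass (exact permutation p = 0.114, adjusted 0.131), as TAC-Veh replicates 3 and 4 lay at -1.42 and -1.40, inside the Sham-Veh range. With THZ1 in TAC mice the difference was -0.61 with no overlap (exact permutation p = 0.0286, adjusted 0.0457 over 8 tests and 0.0571 over 6). The log2 ratio of P4ha3 to P4ha1 differed by 2.61 with TAC and by -1.82 with THZ1, given as a description, since P4ha3 was tested only because its TAC-Veh values were high. With a pseudocount of 5 in place of 1, no ratio passed after adjustment.

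**Figure D4:**
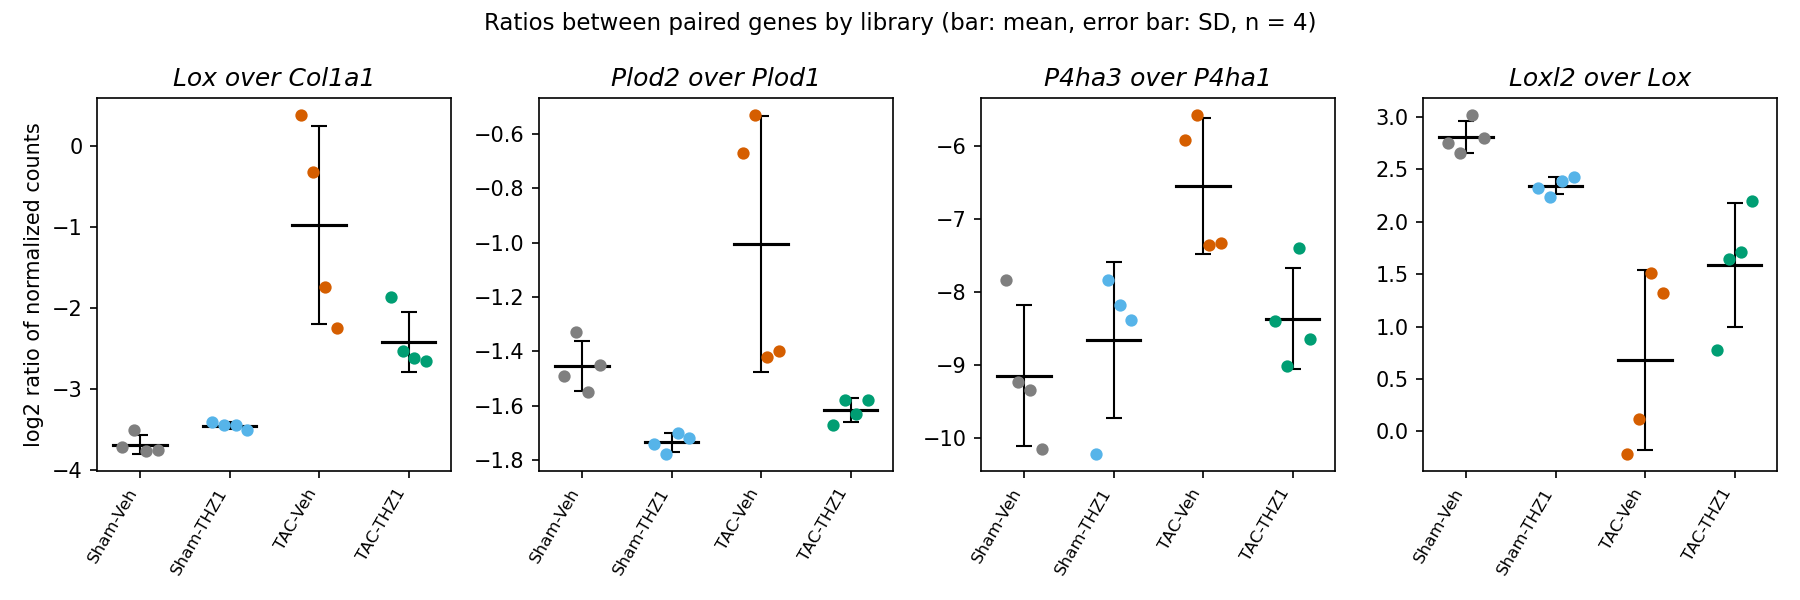
Log2 ratio of normalized counts for 4 gene pairs in each library, with group means (bars) and SDs (error bars, n = 4). In TAC-Veh the libraries fall into pairs, with replicates 1 and 2 at 0.38 and -0.32 for Lox over Col1a1 and replicates 3 and 4 at -1.74 and -2.25, while the Sham-Veh libraries stay between -3.77 and -3.51.

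Genes of the same pathway were taken from 5 lists, to be read against 21.4% of all genes called higher and 23.6% lower with TAC, and 15.1% higher and 14.2% lower with THZ1 in TAC mice. Of the substrates, Col1a1, Col1a2, Col3a1, Col5a1, Col5a2 and Eln were tested, and Col11a1, with a mean of 9.58 normalized counts in TAC-Veh, was below the filter. All 6 were called higher with TAC, by 1.11 for Col1a1, 1.36 for Col1a2, 1.59 for Col3a1, 0.64 for Col5a1, 2.19 for Col5a2 and 1.61 for Eln, with a median of 1.47. For Col5a1 and Eln, TAC-Veh replicate 3 lay inside the Sham-Veh range, at 1437 and 300 normalized counts. The other substrates tested had no overlap. All 6 were called lower with THZ1 in TAC mice, with a median of -1.84, from -1.22 for Col5a1 to -2.28 for Col5a2. In TAC-THZ1, Col1a1 was also below Sham-THZ1, at 983 ± 151 against 1778 ± 129 normalized counts (log2 difference of -0.86, limma adjusted p of 0.0149), as was Col5a1, with a difference of -0.72 (limma adjusted p of 0.0107).

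Of 14 tested genes for folding and modification in the endoplasmic reticulum (Mia3 was not matched), 10 were called higher and 1 lower with TAC, and 0 higher and 11 lower with THZ1 in TAC mice, with medians of 0.44 and -0.41. P4hb, the beta subunit of prolyl 4-hydroxylase, changed by 0.40 and then -0.41, and P4ha2, the alpha subunit outside the members, by 0.37 and -0.37. Serpinh1, the collagen chaperone Hsp47, changed by 0.66 and -0.58, Crtap by 0.49 and -0.40 and P3h1 by 0.55 and -0.50, each of them called in both comparisons. For Serpinh1, TAC-Veh replicate 1 at 4549 normalized counts lay inside the Sham-Veh range of 3594 to 4585. It also lay below TAC-THZ1 replicates 3 and 4, at 5203 and 4873. For P4ha2, TAC-Veh replicate 3 at 1195 lay inside the Sham-Veh range. With only the TAC groups fitted, the THZ1 calls of Serpinh1 and Crtap were lost (limma adjusted p of 0.0848 and 0.0743), and with library weights that of P4ha2 was lost (0.0706). P3h4, a partner of Plod1 in the endoplasmic reticulum, went against the list: it fell by 0.61 with TAC, and its difference with THZ1 in TAC mice was 0.30 and not called (limma adjusted p of 0.129). Fkbp10, a peptidyl-prolyl isomerase on which Plod2 activity depends, was not called with TAC at 0.19 (limma adjusted p of 0.292) and was lower by 0.45 with THZ1 in TAC mice (0.0258) and by the same 0.45 in TAC-THZ1 against Sham-THZ1 (0.0307). The first call was lost without TAC-Veh replicate 1 or 2 or TAC-THZ1 replicate 1 (limma adjusted p of 0.0547, 0.0988 and 0.0879), with only the TAC groups fitted (0.118) and with library weights (0.124). The second was lost without Sham-THZ1 replicate 2, 3 or 4 or TAC-THZ1 replicate 1 or 3, with limma adjusted p of up to 0.108.

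Of 15 genes that process procollagen or activate and place lysyl oxidase, 11 were called higher and 3 lower with TAC, and 1 higher and 11 lower with THZ1 in TAC mice. Bmp1, the protease that removes the C-propeptide and cleaves pro-Lox, changed by 0.44 and -0.41, its enhancer Pcolce by 1.46 and -1.08, and the elastic fiber proteins Efemp2 and Fbln5, which bind lysyl oxidases, by 0.94 and -0.70 and by 1.20 and -1.14. All of these were called, though Efemp2 not with THZ1 when only the TAC groups were fitted (limma adjusted p of 0.0553). For Efemp2, TAC-THZ1 replicate 3 at 320 normalized counts lay above TAC-Veh replicate 4 at 314. The proteases Tll2, Adamts3 and Adamts14 went the other way, with falls of 3.03, 0.80 and 0.85 with TAC, and Tll2 was higher by 1.95 with THZ1 in TAC mice. Tll2 had only 0, 4, 7 and 9 reads in the TAC-Veh libraries, so the size of both its differences is uncertain. Tll1, a relative of Bmp1, was not called in either comparison, at 0.86 and -0.17.

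Lysyl oxidases take their copper in the secretory pathway from the transporter Atp7a. Of 3 tested genes of copper delivery, Atox1 was called higher with TAC at 0.53. Atp7a was not called with TAC at 0.43 (limma adjusted p of 0.124) but was lower by 0.90 with THZ1 in TAC mice (0.0063). Neither result of Atp7a was firm. Without TAC-Veh replicate 3 it was called higher with TAC, at 0.63 (limma adjusted p of 0.0191). With library weights its THZ1 call was lost (limma adjusted p of 0.0771). Slc31a1 was not called in either comparison at -0.11 and 0.12, and Atp7b was below the filter. Of 12 hypoxia-inducible reference genes, 5 were called higher and 2 lower with TAC, and 1 higher and 2 lower with THZ1 in TAC mice, with medians of 0.38 and -0.12. The 2 lower ones with TAC were Vegfa, with a fall of 0.26, and Egln1, with a fall of 0.53. Egln1 was the one that was higher with THZ1, at 0.46, and the 2 lower ones were Slc2a1 at -0.49 and Car9 at -1.43. Car9 passed the filter only through TAC-Veh.

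**Figure D5:**
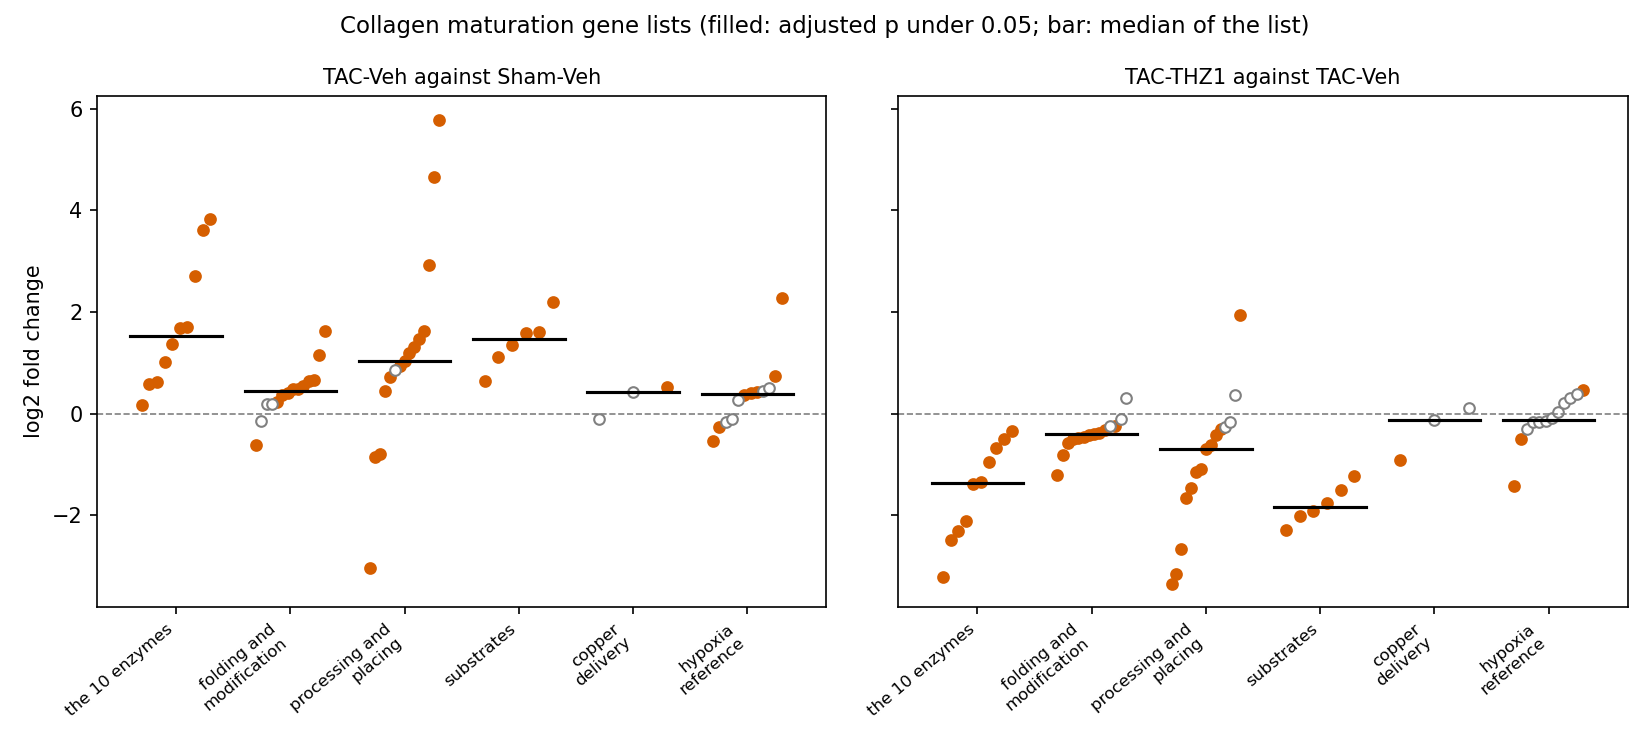
Log2 fold changes of each tested gene in the members' list and the 5 pathway lists, with TAC (left) and with THZ1 in TAC mice (right), filled where the adjusted p was under 0.05 and with the list's median as a bar. The members' median is 1.52 on the left and -1.36 on the right, or 1.37 and -1.34 without P4ha3, which passed the filter only through TAC-Veh. The substrates have medians of 1.47 and -1.84, and the hypoxia reference genes 0.38 and -0.12.

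For the 8 members whose normalized counts averaged 100 or more, the genes with the most similar pattern over the 16 libraries were found among 10317 genes by the root mean square difference of centered log2 values. This is a description over libraries of 4 groups, and any gene that follows the groups scores well. For Lox the nearest were Ctgf at 0.52, Loxl3 at 0.54 and Thbs1 at 0.55, none of them close beside the spread of Lox itself at 1.65. Loxl2 was matched by its substrate gene Col3a1 at 0.13, then by Fbn1 at 0.20 and Col5a2 at 0.27, where its own spread was 0.92. Loxl1 was nearest to Adamts2, the procollagen N-proteinase, at 0.13 with a spread of 0.70, then A430110N23Rik at 0.17 and Ace at 0.18. Loxl3 was nearest to Meox1 at 0.28, a gene also used here as a myofibroblast marker, then Nupr1 at 0.29 and Fstl3 at 0.32.

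The hydroxylases had other neighbors. Plod2 was nearest to Prkab2 at 0.14, Creb3l2, a transcription factor of the secretory pathway, at 0.17 and Msn at 0.17, with its own spread at 0.42. Plod3 was nearest to Sec61a1, a subunit of the translocon of the endoplasmic reticulum, Tgfbr2 and Crtap, all at 0.10. P4ha1 was nearest to the chaperone gene Hsp90aa1 at 0.10, then Gpm6b at 0.12 and Tmem62 at 0.15, with a spread of 0.48. Plod1, whose own spread was 0.14, was nearest to Eprs at 0.07, then 2310008H09Rik and Smurf2 at 0.08 each.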

How the data were processed

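Ventricle RNA of 16 mice was sequenced from a stranded mRNA kit. Per the labels and methods, the authors aligned reads to mm9 with TopHat 2.1.1, counted GENCODE genes with htseq-count in reverse-stranded mode, and divided counts by DESeq2 size factors; the deposited signal is this normalized count. Identifiers were matched to GENCODE vM1 on NCBIM37, the same assembly, for symbols, positions and lengths. Dividing by each library's step gave whole reads for 100% of values, and all 16 libraries entered the count models, which are alternatives only.

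Values plus 1 were log2-transformed and fitted in limma 3.58.1 (R 4.3.3) with 1 mean per group, trended eBayes and no covariates, over 13331 genes with at least 10 in at least 4 libraries, with Benjamini-Hochberg adjustment within each comparison and calls at an adjusted p under 0.05. Alternatives covered pseudocounts, filters, scaling, the groups fitted, robust eBayes, library weights, thresholds, the replicate number as a block, each library left out, DESeq2 1.42.0 and the edgeR 4.0.16 quasi-likelihood test. Ratios were tested with SciPy 1.17.1. Scripts were tested on simulated data. Members and lists were chosen with earlier results of these data known. Genes named were the members, set genes of each list, those against their list, and the 3 genes most like each member; Tll1, Atox1, Slc31a1, Slc2a1, Car9 and the genes behind a count of 3 or fewer were named after their values were seen. Replicates were different mice, so p-values rest on the spread between mice. In limma that spread was shared over the 4 groups, which differed in spread.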

Additional observations from a re-analysis of the deposited data

Results flagged for a closer look

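For 18 of 28 genes named in the comparisons, THZ1 had unlike effects in the sham and TAC mice by the limma interaction. Over all genes tested the interaction was called higher for 4.4% and lower for 5.62%. The interaction uses the same TAC-Veh libraries as the calls with TAC and with THZ1 in TAC mice, and is not separate from them. Among the members these log2 differences, THZ1 in TAC minus THZ1 in sham, were -3.65 for Lox, -1.60 for Loxl1, -2.29 for Loxl2, -2.42 for Loxl3, -0.40 for Plod1, -0.74 for Plod2 and -0.66 for Plod3. Among the pathway genes they were -0.37 for P4hb, -0.58 for P3h1, -0.50 for Bmp1, -1.02 for Pcolce, -1.32 for Fbln5, -1.98 for Col1a1, -1.49 for Col1a2, -2.01 for Col3a1, -1.36 for Col5a1, -2.37 for Col5a2 and -2.51 for Eln. For P4hb the call (limma adjusted p of 0.0392) was lost in 12 of 16 fits with 1 library left out (any of the 8 sham libraries, TAC-Veh replicate 1 or 2, or TAC-THZ1 replicate 2 or 4), with adjusted p of up to 0.0832, and in 4 of 13 other alternatives, with up to 0.0676.

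One library stood apart from the other 3 of its group, by Dixon's test at the 95% level, in 4 of 112 groups, where chance gives about 1 in 20. These were the Sham-THZ1 library with 182 normalized counts of Loxl3, next to 168, the Sham-Veh library with 5.30 of P4ha3, next to 0.884, the TAC-THZ1 library with 1162 of Col5a1, next to 929, and the Sham-Veh library with 0.802 of Col11a1, next to 0.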

How the results depend on the processing

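Over the alternatives, members called numbered 7 to 10 with TAC and 7 to 10 with THZ1 in TAC mice, and 8 to 10 and 9 to 10 with 1 library left out, where P4ha3 went untested once any single TAC-Veh library was gone. The sham comparison gave 0 to 2 calls, 2 with only the groups compared. Between the THZ1-treated groups there were 1 to 3 calls with 1 library left out, 1 at an adjusted p under 0.01 and 0 with a minimum fold change, and the interaction gave 4 with that minimum. With the replicate block the counts were 10, 10, 0, 2 and 7, the same as without it. Same-numbered libraries did not deviate together (r of -0.431 to 0.164), so the numbers were not taken as pairs. With a pseudocount of 5, ratios that had passed became 2.66 for Lox over Col1a1, 1.25 for P4ha3 over P4ha1 and -2.08 for Loxl2 over Lox with TAC, and -0.60 for Plod2 over Plod1 and -1.12 for P4ha3 over P4ha1 with THZ1, with adjusted p of 0.0571 or 0.114, because 1 fewer test reached the smallest p. Adjusted without the P4ha3 tests, a choice made after the values were seen, 2.71 for Lox over Col1a1 and -2.12 for Loxl2 over Lox with TAC and -0.61 for Plod2 over Plod1 with THZ1 no longer passed (adjusted exact permutation p = 0.0571). Leaving out a library or blocking by number cannot pass for the ratios. Direction turned only for values near 0. With THZ1 in sham mice these ranged, with 1 library left out, from -0.07 to 0.04 for Loxl2, -0.00 to 0.88 for P4ha3, -0.04 to 0.10 for P4ha2, -0.08 to 0.04 for Serpinh1, -0.03 to 0.06 for Col1a2 and -0.08 to 0.05 for Col3a1. They were 0.01 for Loxl2, 0.00 for Serpinh1 and 0.02 for Col3a1 with library weights, and for Col1a2 -0.01 with upper quartile scaling and edgeR and -0.00 with quantile scaling and DESeq2. Between the THZ1-treated groups they ranged from -0.02 to 0.21 for Loxl1, -0.11 to 0.00 for Plod3, -0.07 to 0.03 for P4ha2, -0.01 to 0.05 for P4hb and -0.08 to 0.03 for P3h1, and P4ha2 was 0.01 with upper quartile and 0.00 with quantile scaling. Of 1460 member values under alternatives, 1401 kept direction and side of the threshold. Among the members depth limits P4ha3 and Loxl4, and it also limits other genes with few reads, such as Tll2.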
